A study of Drosophila melanogaster with 14 samples.

Results

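CG12990, CG6788 and Sdic3 are X-linked genes of Drosophila melanogaster. They were chosen by the deposited values described here, for the size of their difference between sesB1 and wild-type males and its absence in females. Each gene had 1 probeset of its own, so the members were 3 of the 18769 probesets tested, and 1 further probeset, annotated to Sdic2, Sdic3, Sdic4 and sw, was shared. The choice used the values of both sexes, so for these genes the levels and differences below are given as a description, without tests.

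Whole flies of 4 groups were hybridized to Affymetrix Drosophila 2.0 arrays, with 3 arrays of wild-type males, 3 of wild-type females, 4 of sesB1 males and 4 of sesB1 females. sesB1 is a mutant allele of sesB, the X-linked gene for the major isoform of the adenine nucleotide translocase. This translocase carries ATP out of mitochondria in exchange for ADP. The mutant flies are described as F1 of virgin, homozygous sesB1 females of a Canton S stock and sesB1 males of an Oregon R stock. The controls were the F1 of wild-type Canton S females and wild-type Oregon R males. The paper reports sesB1 females to be essentially sterile, so the mutant cross is given as described, without a check. Both sesB1 stocks had been backcrossed for more than 10 generations and were then kept over a balancer. Flies were reared at 25 °C, and the sample labels give an age of 2 days, the text of the series 1 day. The females were virgins. The paper's methods describe triplicate isolations from batches of flies, and no source used here says which arrays share a batch, so the spread between arrays may be partly technical. A male takes its single X chromosome from its mother, here from the wild-type or the sesB1 Canton S stock. Its Y chromosome comes from its father and its autosomes from both parents. The sesB1 allele and other differences between the wild-type and sesB1 stocks, X-linked or not, therefore cannot be told apart.

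Sdic genes encode the sperm-specific intermediate chain of an axonemal dynein, the motor of the sperm tail. The family arose on the X chromosome of this species by fusion of parts of sw, the cytoplasmic dynein intermediate chain, and AnxB10, an annexin, followed by tandem duplication, and its copies are nearly identical in sequence. CG6788 encodes a predicted fibrinogen-related protein, a family of secreted proteins that includes lectins. CG12990 is named here by its annotation number only.

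The deposited values are set relative to the median of the same probeset on the 14 arrays. Their log base is not stated, and they are treated here as log2 signals, on which all fold values rest. They give differences between arrays but not the brightness of a probeset, so a value near 0 is not a statement that a transcript was absent, and levels of different genes cannot be compared. In RNA of whole flies, fewer cells of a type and less RNA per cell cannot be told apart.

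CG12990 (probeset 1623148_at) was high in wild-type males and low in the other groups. Its centred log2 signal was 5.69, 5.55 and 5.71 on the wild-type male arrays and -0.22, -0.20, -0.06 and -0.25 on the sesB1 male arrays. It was 0.23, 0.19 and 0.10 in wild-type females and -0.05, 0.05, -0.12 and -0.17 in sesB1 females. The lowest wild-type male array lay 5.31 log2 units above the highest of the other 11 arrays, which ranged from -0.25 to 0.23. The mean was 5.65 ± 0.088 (SD, n = 3) in wild-type males and -0.18 ± 0.083 (SD, n = 4) in sesB1 males, a difference of -5.83 (standard error 0.0656), or 57.0-fold lower in sesB1 males. In females the means were 0.17 ± 0.070 (SD, n = 3) and -0.07 ± 0.093 (SD, n = 4). The female difference of -0.24 had the same sign as in males, and the arrays did not overlap, although the gap between the nearest of them was 0.0495. The male and female arrays of sesB1 overlapped for CG12990, with means that differed by -0.11. In wild type the males were higher than the females by 5.48, or 44.5-fold.

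CG6788 (probeset 1633167_s_at) had the same pattern with a wider spread. The suffix of this probeset marks probes that match more than 1 transcript. Wild-type male arrays had values of 5.74, 5.09 and 5.998, and sesB1 male arrays had 0.26, -0.19, -0.07 and 0.00. Wild-type female arrays gave 0.02, -0.01 and -0.10, and sesB1 female arrays gave -0.00, -0.10, 0.19 and -0.34. All wild-type male arrays were at least 4.83 above the remaining 11, and among those 11 no group stood apart. The male means were 5.61 ± 0.466 (SD, n = 3) and 0.00 ± 0.191 (SD, n = 4), a difference of -5.61 (standard error 0.285), or 48.8-fold lower in sesB1 males. The female means of -0.03 ± 0.062 (SD, n = 3) and -0.06 ± 0.222 (SD, n = 4) differed by -0.04, with overlapping arrays. CG6788 was 49.8-fold higher in males than in females of the wild type. In sesB1 the sexes overlapped, with a difference of 0.07.

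Sdic3 (probeset 1635695_at) had the opposite pattern, high in sesB1 males and low elsewhere. Its values were 4.14, 4.08, 4.10 and 4.11 in sesB1 males and -0.36, -0.62 and -0.79 in wild-type males. In females they were -0.14, -0.05 and -0.21 for the wild type and 0.11, 0.05, -0.29 and 0.36 for sesB1. The sesB1 male arrays lay 3.72 or more above the other 10. They differed from each other by little, with a mean of 4.11 ± 0.0242 (SD, n = 4), against -0.59 ± 0.215 (SD, n = 3) in wild-type males. The difference of 4.70 (standard error 0.125) was 25.96-fold. In females the means were -0.13 ± 0.080 (SD, n = 3) and 0.06 ± 0.266 (SD, n = 4), and the arrays overlapped. Wild-type males were the lowest group for Sdic3. They lay 0.46 below wild-type females with no overlap, whereas sesB1 males were 16.6-fold above sesB1 females.

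**Figure D1:**
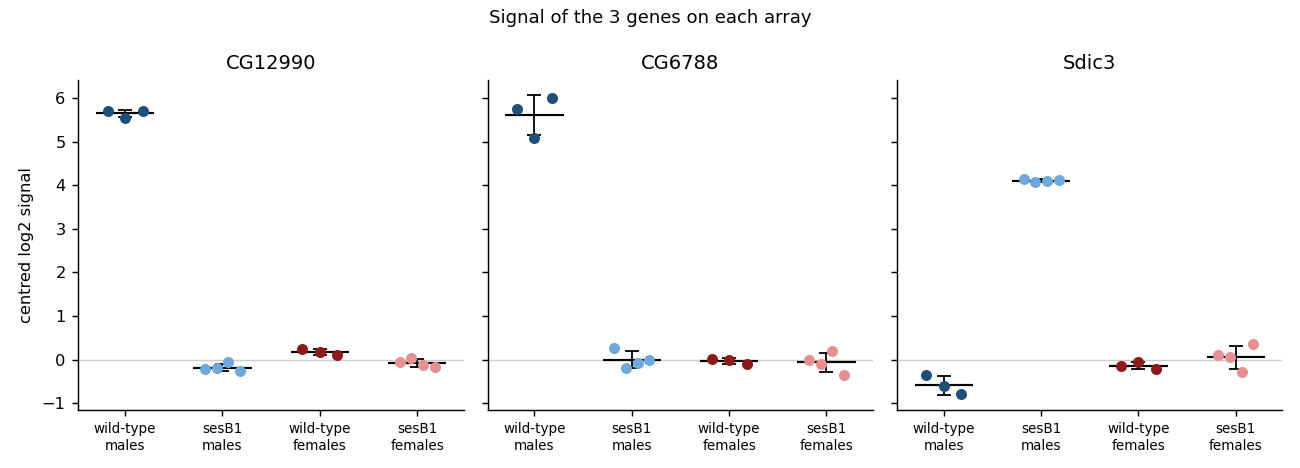
Centred log2 signal (y axis) of CG12990, CG6788 and Sdic3 on each of the 14 arrays, by group (x axis), where points are arrays, horizontal lines are group means and bars are SD. CG12990 and CG6788 are high on the 3 wild-type male arrays, and Sdic3 on the 4 sesB1 male arrays.

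Separation of the sesB1 and wild-type male arrays was common, and was found for 29.7% of the 18739 probesets with a value on every array. In females it was found for 38.1%, as for CG12990, between the sexes of the wild type for 67.5%, as for all 3 genes, and between the sexes of sesB1 for 59.6%, as for Sdic3. A distance as wide as that of the members was rare. For 33 probesets (0.176%) all wild-type male arrays lay at least 1 log2 unit above all other arrays, and for 7 of them at least 2 units. CG12990 and CG6788 had the widest distances of these 33, followed by CG2663 with 3.78 and CG18301 with 3.69. For 10 probesets (0.0534%) the sesB1 male arrays lay at least 1 unit above the rest. Sdic3 had the widest distance of these 10, and the next was 2.26, for a probeset annotated to 13 copies of Stellate. Stellate is a multi-copy gene of the testis that is kept silent in wild-type males by small RNAs from the Y chromosome. The Stellate probeset was 2.51 higher in sesB1 than in wild-type males, and 0.58 higher in sesB1 than in wild-type females. These ranks restate how the 3 genes were chosen. After quantile normalization of the arrays the male differences were -4.73 for CG12990, -4.66 for CG6788 and 5.48 for Sdic3.

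Of all probesets, 192 (1.02%) were at least 2-fold different at an adjusted p under 0.05 in males and not in females. CG12990, CG6788 and Sdic3 had the 3 largest male differences of these 192. The genes just outside were CG18301, a predicted lipase, with a male difference of -4.23, CG2663, a predicted lipid-binding protein of the CRAL-TRIO type, with -4.07, and 1 of 3 probesets of CG30427, a predicted fatty acyl-CoA reductase, with -3.82. On the higher side the next was a probeset with no gene symbol, with 3.17 in males and 0.80 in females, then Cpr67Fb, a cuticle protein, with 2.71, and tobi, which is related to alpha-glucosidases, with 2.52. The female differences of CG18301, CG2663, CG30427 and Cpr67Fb lay between -0.12 and 0.20, and that of tobi was 1.07.

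**Figure D2:**
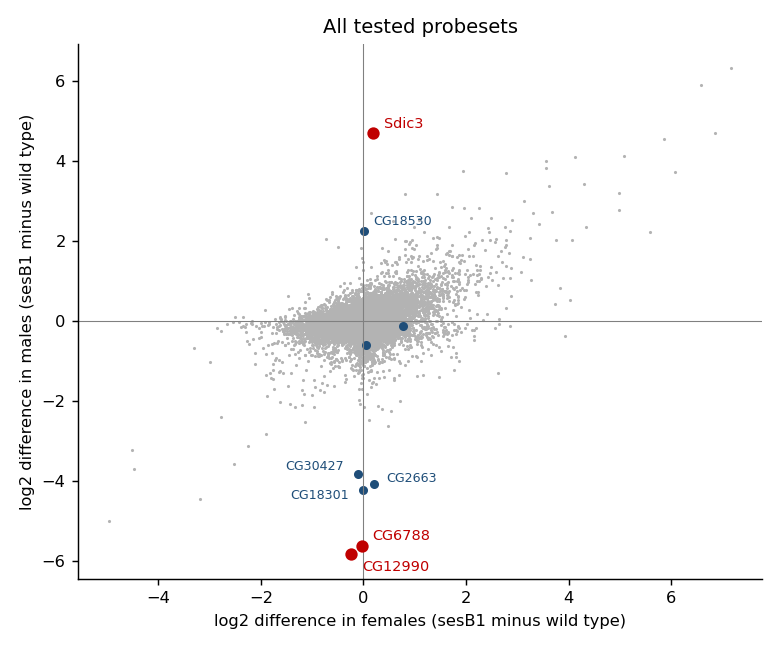
Log2 difference of sesB1 minus wild type in males (y axis) against that in females (x axis), 1 point per tested probeset. CG12990, CG6788 and Sdic3 (red) lie near 0 in females and at -5.83, -5.61 and 4.70 in males, and probesets of 4 further genes named in the text are in blue, the 2 unlabelled points being the other probesets of CG30427.

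The members differed from the next genes in where the sesB1 males lay. For CG12990 and CG6788 the sesB1 male arrays overlapped those of sesB1 females. CG18301 was lower in sesB1 males than in wild-type males, at 1.18, 0.60, 0.36 and 0.72 against 4.91, 5.06 and 4.86, but stayed above all 7 female arrays, which ranged from -0.56 to -0.36. CG2663, CG30427 and CG10657 also had sesB1 male arrays above all female arrays, with a sesB1 difference of males minus females of 1.33, 1.45 and 1.27. CG17738 was like the members, since its sesB1 sexes differed by 0.04 and overlapped. Among genes that were higher in sesB1 males, Cpr67Fb was 2.30 higher in wild-type males than in wild-type females. CG18530 was at 2.29, 2.39, 2.06 and 2.05 in sesB1 males and between -0.44 and 0.06 on the other 10 arrays, the pattern of Sdic3 at a smaller size.

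**Figure D3:**
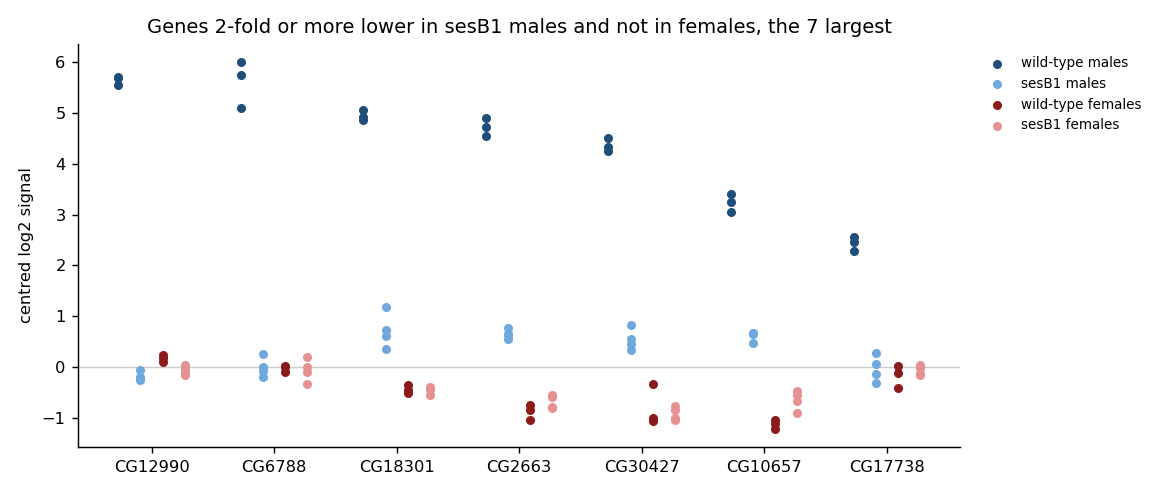
Centred log2 signal (y axis) on each array for the 7 genes with the largest male decrease among those not called in females (x axis), coloured by group. In CG12990, CG6788 and CG17738 the sesB1 male points reach the female points, and in the other 4 genes they lie above them.

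The probesets of the Sdic cluster did not move together. Sdic1, read by probeset 1631477_a_at, was a male transcript in both genotypes. It had values of 2.29, 2.26 and 2.66 in wild-type males and 2.20, 2.30, 2.25 and 2.11 in sesB1 males, and was under -2.1 on every female array. Its male difference was -0.19 (standard error 0.10, adjusted p = 0.263 from limma), and its female difference was -0.02 (adjusted p = 0.938). Wild-type males exceeded wild-type females by 4.74 for Sdic1, where Sdic3 differed by -0.46. The 2 probesets therefore reported different signals in wild-type males, although both are annotated to copies of 1 family.

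The probeset shared by Sdic2, Sdic3, Sdic4 and sw had values of 0.32, 0.38 and 0.44 in wild-type males and 0.96, 0.98, 0.85 and 0.85 in sesB1 males. The male groups did not overlap. The log2 difference of 0.53 was 1.44-fold, far below that of Sdic3, and is given without a test because the probeset is annotated to Sdic3 among others. In females it was at -0.77, -0.87 and -0.32 in the wild type and -0.66, -0.43, -0.52 and -0.33 in sesB1, with a difference of 0.17 and overlapping groups. AnxB10, the other parent gene of the family, differed by 0.09 in males (adjusted p = 0.472 from limma) and 0.15 in females (adjusted p = 0.16). Which copies each probeset reads was not tested, because probe sequences were not used here.

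**Figure D4:**
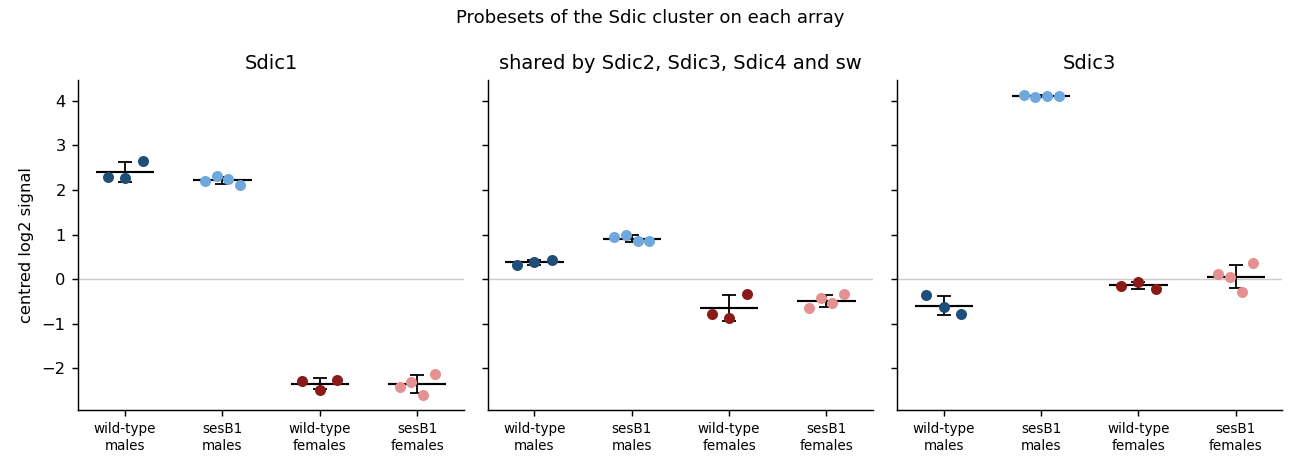
Centred log2 signal (y axis) of 3 probesets of the Sdic cluster on each array, by group (x axis), with group means (lines) and SD (bars). Sdic1 was high in males of both genotypes, the shared probeset was 0.53 higher in sesB1 than in wild-type males, and Sdic3 was high in sesB1 males.

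In the order of 2700 genes listed for the X chromosome, 24 genes lie between CG12990 and CG6788, 319 between CG6788 and Sdic3, and 890 between sesB and CG12990. The members are therefore not neighbours of sesB. Of the 2184 X-linked probesets, 4 were at least 8-fold different in males, and these were CG12990, CG6788, Sdic3 and CG8289. Of the 169 of the 192 male-only probesets with a known chromosome 27 were on the X, or 15.98%, against 16.1% of all those tested. At 4-fold or more 3 of 20 were on the X, and at 8-fold or more 3 of 6, in both cases the genes described here. The choice by size placed the 3 genes in the 4-fold and 8-fold counts. The X shares at these sizes therefore restate the choice and are no support for an excess on the X. The shares were not tested.

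CG8289 was the one near neighbour with a large difference, with 4 genes between it and CG12990. It was 9.31-fold lower in sesB1 males (log2 difference -3.22 with a standard error of 0.0989, adjusted p = 3.59e-08 from limma) and 23.0-fold lower in sesB1 females (-4.52, standard error 0.145, adjusted p = 2.64e-07), unlike CG12990, whose female difference was -0.24. Of the 5 listed genes on each side of CG12990, 9 had probesets of their own, 11 in all. CG8289 was the only one of the 11 called in males, where 21.9% of all probesets were called. In females 3 of the 11 were higher and 6 lower, where 13.4% of all were higher and 18.9% lower, 32.2% together. beta-Spec, the spectrin beta chain gene next to CG12990, differed by 0.04 in males (adjusted p = 0.785) and 0.70 in females (adjusted p = 0.000262). chas, on the other side, differed by 0.21 in males (adjusted p = 0.262) and 0.60 in females (adjusted p = 0.0019).

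Around CG6788, 6 of the 10 nearest genes had 9 probesets, and in males 1 of them was higher and 1 lower, against 11.1% and 10.8% of all probesets. The lower one was 1 of 4 probesets of mnb, a protein kinase gene, at -0.50 (standard error 0.083, adjusted p = 0.00183), and the other 3 were not called in males. The higher one was CG7772 at 0.20 (adjusted p = 0.0495). That call was lost under 12 of the alternatives tried, with adjusted p-values between 0.0532 and 0.173. CG12985, the gene next to CG6788, differed by -0.18 in males (adjusted p = 0.269) and -0.18 in females (adjusted p = 0.142). A probeset shared by Gss1 and Gss2, glutathione synthetase genes, rose by 0.90 in males (adjusted p = 3.79e-05) and by 1.51 in females (adjusted p = 9.6e-05). A second probeset shared by these genes differed by 0.16 in males (adjusted p = 0.321) and 0.76 in females (adjusted p = 0.0491). Around Sdic3, Sdic1 and AnxB10 were the only genes with a probeset of their own, and neither passed the test in either sex.

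**Figure D5:**
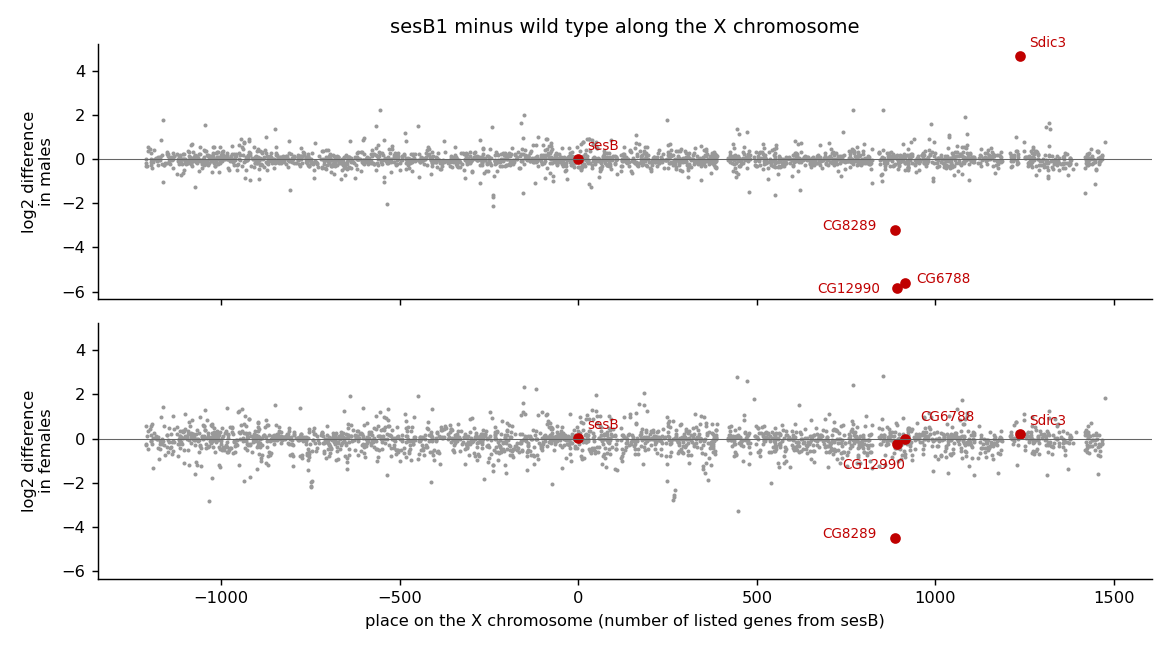
Log2 difference of sesB1 minus wild type in males (top) and females (bottom) for each X-linked probeset, placed by the number of listed genes from sesB (x axis). In males 4 probesets exceed 8-fold, namely CG12990, CG6788, Sdic3 and CG8289, and CG8289 alone of them does so in females.

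Other dynein genes did not share the difference of Sdic3. Of 26 listed subunit genes 23 had probesets of their own, 28 in all, and in males 1 was higher and 5 lower, with a median of -0.08 against -0.01 over all probesets. The 6 called were close to the share of all probesets called in males, 21.9%. ODA-Dnal1, an axonemal light chain gene, was higher by 0.45 (standard error 0.10, adjusted p = 0.0109 from limma). Lower were CG1571, related to dynein intermediate chains, by -0.54 (adjusted p = 0.0203), robl37BC, a light chain of the roadblock type, by -0.50 (adjusted p = 0.00359), Cdlc2, a cytoplasmic light chain, by -0.44 (adjusted p = 0.0018), and both probesets of ctp, its close paralogue. In females 1 was higher and 5 lower, where 32.2% of all were called. The male count fell from 6 to 3 without wild-type male array 2 and sesB1 male array 4, and the calls of CG1571, robl37BC and Cdlc2 were lost after quantile normalization (adjusted p = 0.222, 0.0922 and 0.285).

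Many testis transcripts fell in sesB1 males, where Sdic3 was high. Of 28 probesets of 26 testis and spermatid genes, 26 were higher in wild-type males than in wild-type females. In males 16 of the 28 were lower in sesB1 at an adjusted p under 0.05, against 10.8% of all probesets, with differences from -1.44 to 0.07 over the list and a median of -0.25. Tpl94D, a transition protein of spermatids, was lowest at -1.44 (standard error 0.10, adjusted p = 8.68e-06), followed by can, a testis-specific TAF, at -0.81 (adjusted p = 0.000297), and dj, a sperm tail protein, at -0.79 (adjusted p = 0.000126). The median of this list was between 2.48 and 2.52 on the wild-type male arrays and between 2.19 and 2.28 on the sesB1 male arrays. The count of 16 fell to 5 after quantile normalization, 7 with a replicate block, 4 in a joint fit of the 4 groups and 10 without wild-type male array 2 and sesB1 male array 4. Of 13 probesets of accessory gland and ejaculatory duct genes 11 were lower in sesB1 males and 1 higher, with a median of -0.66, and the median of that list was between 2.92 and 3.05 on wild-type and between 2.20 and 2.48 on sesB1 male arrays. The joint fit, which takes 1 spread per probeset from all 4 groups, called 2 of these 13. In the separate fits the standard error of Acp36DE was 0.0803 in males and 1.04 in females. That of EbpIII was 0.0684 in males and 0.0875 in females. A wide spread among females therefore enters the joint test of the male difference. The part of the testis and accessory gland shifts in the values of the 3 genes was not tested.

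The family of CG6788 showed no decrease of its size. The list, drawn up with the values of CG6788 known, held 13 other fibrinogen-related genes, of which 12 had probesets of their own, 15 in all. In males 1 was higher and 4 lower, against 11.1% and 10.8% of all probesets, with a median of 0.03, and the largest decreases were -0.70 for CG30281 (standard error 0.090, adjusted p = 0.000394 from limma) and -0.65 for CG1791 (standard error 0.10, adjusted p = 0.00159). In females 3 were higher and 3 lower, against 13.4% and 18.9% of all. CG30281 was also lower in females, by -1.11 (adjusted p = 0.000224), and CG1791 differed there by -0.10 (adjusted p = 0.6). The decrease of CG1791 was stronger in males, with an interaction of 0.54 (female minus male, adjusted p = 0.026). CG1791 was named for its large male change, which favours such a difference. CG30280 (-0.34), CG31832 (-0.39) and CG10359 (0.33, higher in sesB1) were called in males at adjusted p-values of 0.0263, 0.0352 and 0.0418. These male calls were lost under a replicate block and the methods' t-test. In females the limma difference was larger for CG30280 (-0.67, adjusted p = 0.000603) and CG10359 (1.01, adjusted p = 0.00332). For CG31832 it was -0.11 (adjusted p = 0.536).

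Over the 14 arrays CG12990 and CG6788 followed each other with r = 0.99, but Spearman's rho was 0.48, since the correlation rests on the distance of the 3 wild-type male arrays from the other 11. The genes most like each are listed as a description. For CG12990 these were, after CG6788, CG17738 (r = 0.98), CG14369 (0.98), Elovl7, a fatty acid elongase (0.98), and Obp8a, an odorant-binding protein (0.96). Their rho with CG12990 was 0.33, 0.79, 0.76 and 0.39. CG6287, a phosphoglycerate dehydrogenase, Gs1, a glutamine synthetase, and CG11899, a phosphoserine aminotransferase, ran most nearly opposite, with r between -0.98 and -0.97. CG6788 was most like CG17738 (0.99) among other genes and most opposite to Adsl, the adenylosuccinate lyase (-0.98). For Sdic3 the nearest were CG18530 (r = 0.97, rho = 0.54), lncRNA:CR32553 (r = 0.96, rho = 0.96) and Ance-3 (r = 0.96, rho = 0.64), and stac was most opposite (-0.97). All these values share the 14 arrays and their normalization.

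Within-group correlations of arrays over all probesets were 0.855 to 0.982, and some arrays held more transcripts of the other sex. Over the ovary and female fat body markers the median was -1.11 on wild-type male array 2, against -6.49 and -6.51 on the others, and -2.55 on sesB1 male array 4, against -6.77 to -6.28. CG12990 and CG6788 were lowest among wild-type males on array 2, at 5.55 and 5.09. Without these arrays the male differences were -5.86 for CG12990, -5.87 for CG6788 and 4.68 for Sdic3. They were 0.55 for the shared Sdic probeset and -0.22 for Sdic1. Testis markers were higher on sesB1 female arrays 4 and 2 (-2.15 and -2.84) than on the other female arrays, and CG12990, CG6788 and Sdic3 were at -0.17, -0.34 and 0.36 on array 4 and at 0.05, -0.10 and 0.05 on array 2. A difference of at least 8-fold between the sexes of the wild type, with males higher, was found for 1236 probesets. Their median lay between 2.29 and 2.34 on wild-type male arrays and between 1.97 and 2.13 on sesB1 male arrays, whereas CG12990 and CG6788, ranked 328 and 291 by that sex difference, were at -0.18 and 0.00 in sesB1 males.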

How the data were processed

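The study hybridized whole-fly RNA to 14 arrays. Per the paper the authors normalized the raw data in Genespring GX. The version, summarisation and log base are not stated in what was read here. The deposited values are treated as log2 signals, as a score that the authors centred on the median of each probeset over the 14 arrays, a median of 0 being found for all 18922 probesets without a missing value. Of 265328 values, 30 were spreadsheet date serials and were set missing. The number of arrays limits the precision, and such values carry no background or depth.

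Of 18952 probesets, 183 control probesets were left out. The 18769 others were fitted in R 4.3.3 by lmFit and eBayes of limma 3.58.1, each sex separately, with the interaction of sex and genotype from all 14 arrays. Adjustment was by Benjamini-Hochberg across the 18769, and calls were made at an adjusted p under 0.05. In simulated data, 100 of 100 probesets raised and 97 of 100 lowered by a log2 change of 2 in males were found, with 8 false calls. The simulated noise was independent between probesets, without a difference between the sexes. Smaller changes were not simulated.

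The genes and lists were chosen with earlier results of these data known. Named were all probesets of CG12990, CG6788 and Sdic3, the 5 genes on each side, the related lists, the next male-only genes and the genes most like each by Pearson's r. Gene order came from a RefSeq table of another build, so no coordinates are given. The planned protein families were not built, and a list of fibrinogen-related genes replaced that of CG6788. The alternatives were quantile normalization, median centring, a replicate block, a robust spread, a joint fit, the methods' t-test, genes in place of probesets and leaving out arrays. Figures were drawn with Python 3.11.15 and matplotlib 3.10.9.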

Additional observations from a re-analysis of the deposited data

Results flagged for a closer look

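Of the 16 named genes tested for a difference between the sexes, 6 passed the interaction of sex and genotype (limma, female minus male log2 difference). The interaction was -1.30 for CG8289, near CG12990, which fell in both sexes and more in females (adjusted p = 0.000195). It was -0.31 for CG7772 (adjusted p = 0.0163), 0.54 for CG1791 (adjusted p = 0.026), 0.69 for CG10359 (adjusted p = 0.0411), 0.96 for Cdlc2 (adjusted p = 0.0477) and 1.09 for Tpl94D (adjusted p = 0.00139). For Cdlc2 the female difference was 0.52 (standard error 0.30) and was not called (adjusted p = 0.245 from limma). Cdlc2 was 6.19 higher in wild-type males than in wild-type females, and testis markers were higher on sesB1 female arrays 4 and 2. The part of those arrays in its interaction was not tested. The male call of Cdlc2 was lost after quantile normalization. Of all probesets, 27.6% passed the interaction test. Genes of the lists were named for large male changes, which favours a difference between the sexes, so their p-values here are descriptive. In none of the 10 groups of 4 arrays tested for the members and the Sdic probesets did 1 array stand apart by Dixon's criterion, which chance passes in about 1 group in 20.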

How the results depend on the processing

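The male differences of the members moved under quantile normalization, to -4.73 for CG12990, -4.66 for CG6788 and 5.48 for Sdic3, and kept their direction there and under median centring, the median of the replicates and the omission of arrays, the alternatives run for them. Quantile normalization also took the count of probesets called in females from 6050 to 2953 and that of the interaction from 5183 to 1781. The replicate block took the count in males from 4112 to 2614. The replicate numbers were not taken as pairs in the main fit. Deviations of same-numbered arrays correlated between -0.17 and 0.05 in males and between -0.15 and 0.09 in females. So few values cannot exclude a shared batch. Leaving out 1 array at a time gave 3216 to 3733 calls in males, 4714 to 6330 in females and 4315 to 5624 for the interaction. It gave male differences of -5.88 to -5.80 for CG12990, -5.87 to -5.42 for CG6788 and 4.60 to 4.81 for Sdic3, and female differences of -0.28 to -0.21, -0.12 to 0.06 and 0.09 to 0.31. The sign of the female difference of CG6788 changed to 0.06 without sesB1 female array 4. Of the other named genes and lists, 438 values kept their side of the threshold or, for counts, stayed close to the main count. Another 22 were counts that moved further or were empty, 46 values lost the call and 4 gained it. The cause was not tested. Leaving out wild-type male array 2 and sesB1 male array 4 together was chosen after seeing the data. The planned protein families were not run. Values centred by probeset do not show which signals lie at background.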
